A study of Mus musculus with 6 samples.

Results

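Clade B serpins are a family of intracellular protease inhibitors, and 7 of them that are known from epidermis are described here: Serpinb2, Serpinb3a, Serpinb5, Serpinb6a, Serpinb8, Serpinb11 and Serpinb12. They were taken as a list of names, and their probes were found through the RefSeq accession that the scanner files give for each probe. The 7 genes had 8 probes, out of 21368 named genes and 55681 probes on the array. Epidermis was peeled from dorsal skin of mouse embryos of a mixed 129SvEx:C57BL/6 strain at embryonic day 16 as labelled, and knockout RNA was hybridised against RNA of wild-type littermates on 2-colour arrays. The question was which transcripts depend on SOX4 and SOX11, a pair of related transcription factors of embryonic epidermis. There were 2 arrays each for the conditional knockout of Sox4 (Sox4 cKO), that of Sox11 (Sox11 cKO) and that of both (dcKO), 6 arrays in all, and the dyes were swapped between replicate 1 (knockout in Cy5) and replicate 2 (knockout in Cy3). Per the study's methods the floxed genes were deleted by Krt14-Cre, which acts in keratin 14-positive basal keratinocytes and their progeny, and the Krt14-Cre mice were FVB/N, a background that the strain label leaves out. The founding floxed mice also carried Sox12-/-, and whether the embryos on the arrays did is not stated in the sources used here. The labels call the arrays biological replicates and do not say whether wild-type RNA was shared between arrays.

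Serpins trap a protease by offering a reactive loop as bait and then changing shape, which leaves both proteins inactive. Those of clade B lack a classical signal peptide and mostly stay inside the cell, where they can meet proteases that leak from lysosomes or are taken up. In stratified epithelia several of them are made as keratinocytes differentiate, and the protease balance they belong to bears on cornification and shedding of the outer layers.

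The genes lie in clusters. In the RefSeq annotation of GRCm38.p6, 12 clade B serpin genes follow each other on chromosome 1 with no other protein-coding gene between them, and 6 of the 7 genes are there. Serpinb6a is the exception and stands at the end of a group of 15 clade B genes on chromosome 13. Promoter sequences of 4 chromosome 1 neighbours are shown, because Serpinb3a and Serpinb8 had positive dcKO ratios while Serpinb11, between them, had negative ones, and because Serpinb2 stood apart on 1 array. Each is the 250 bases before the annotated start (the first of the listed starts for Serpinb2), read 5′ to 3′ on the gene's strand. Capitals mark matches to the AP-1 motif TGANTCA or the SOX motif ACAAAG, both searched on either strand, and to the TATA box TATAAA on the gene's strand.
Serpinb2 (chr1:107511173-107511422, plus strand): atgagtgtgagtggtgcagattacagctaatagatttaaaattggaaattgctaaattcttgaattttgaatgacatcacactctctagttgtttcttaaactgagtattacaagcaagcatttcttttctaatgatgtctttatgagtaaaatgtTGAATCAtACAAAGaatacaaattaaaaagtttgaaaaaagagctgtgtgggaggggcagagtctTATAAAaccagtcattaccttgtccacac
Serpinb3a (chr1:107052304-107052553, minus strand): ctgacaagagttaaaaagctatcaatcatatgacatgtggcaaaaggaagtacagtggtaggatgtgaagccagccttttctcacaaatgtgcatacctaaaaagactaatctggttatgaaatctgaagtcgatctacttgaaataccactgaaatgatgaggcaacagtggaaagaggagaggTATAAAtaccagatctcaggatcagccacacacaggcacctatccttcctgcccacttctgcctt
Serpinb11 (chr1:107362064-107362313, plus strand): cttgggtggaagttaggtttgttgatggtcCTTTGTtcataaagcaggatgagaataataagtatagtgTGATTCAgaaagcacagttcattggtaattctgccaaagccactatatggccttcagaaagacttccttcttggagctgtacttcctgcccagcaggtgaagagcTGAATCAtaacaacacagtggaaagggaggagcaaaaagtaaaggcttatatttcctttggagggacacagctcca
Serpinb8 (chr1:107589756-107590005, plus strand): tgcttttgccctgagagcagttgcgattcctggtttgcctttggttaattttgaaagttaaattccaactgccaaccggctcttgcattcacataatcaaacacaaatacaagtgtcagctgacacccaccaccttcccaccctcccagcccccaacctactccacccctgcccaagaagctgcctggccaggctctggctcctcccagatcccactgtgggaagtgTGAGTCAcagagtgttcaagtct

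The Serpinb2 window held all 3 motifs, with AP-1 at 94 to 88 bases, SOX at 86 to 81 bases and the TATA box at 29 to 24 bases before the start. Serpinb11 had 2 AP-1 matches, at 181 to 175 and 76 to 70 bases, and a SOX match on the opposite strand at 220 to 215 bases. Serpinb3a had only a TATA box at 65 to 60 bases, and Serpinb8 only AP-1 at 23 to 17 bases before the start. Of the windows not shown, Serpinb5 held an AP-1 match, the first Serpinb12 window held all 3 motifs, and the first Serpinb6a window held none. Among 32851 promoter windows of the same length, 6.75% held the AP-1 motif, 16.5% the SOX motif and 7.59% the TATA box. No match overlapped another, and a match describes the sequence and not binding. The AP-1 pattern lets any base stand at N, and the matches differed there. Serpinb8 had TGAGTCA, Serpinb11 had TGATTCA and TGAATCA, and Serpinb2 had TGAATCA.

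All 8 probes were well above background in both channels of all 6 arrays, so every serpin here was measured on both sides of each comparison. The epidermal markers Krt5 and Krt1 were above background in every channel. The Sox4 deletion was seen on the dimmer of its 2 probes, where the knockout was not well above background. On it the Sox4 cKO level was lower by at least 3.70-fold, with a fitted log2 ratio of -1.96 and a limma adjusted p of 0.0284. For dcKO the same probe gave a bound of at least 2.998-fold, with a fitted -1.58 and a limma adjusted p of 0.00223. Its brighter probe gave -0.42 in Sox4 cKO and -0.82 in dcKO, neither past the test (adjusted p = 0.802 and 0.0768). Sox11 probes were near background and could not check that deletion on the arrays. The paper reports RT-qPCR on the RNA used for the arrays to verify loss of Sox4 and Sox11 in the respective knockouts. Between 38.9% and 43.6% of spots were well above background per channel and none was saturated. The number of arrays limits the precision of every value below.

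Across the 7 genes, 6 had higher values in the knockout on both dcKO arrays and Serpinb11 had lower values on both. None passed an adjusted p under 0.05 in limma, in any genotype, although Serpinb3a and Serpinb8 did in dcKO under other corrections given below. Called probes, with an absolute log2 ratio over 1.5 in addition, made up 0.207% of all probes for dcKO, 0.00539% for Sox4 cKO and 0% for Sox11 cKO. At an unadjusted p under 0.05, dcKO had 4 members higher and 1 lower, Sox11 cKO 3 higher and 1 lower, and Sox4 cKO 1 higher. The share of all probes at that level was 9.89%, 7.05% and 6.18%, respectively. The median log2 ratio of the 7 genes was 0.42 in dcKO, 0.34 in Sox11 cKO and 0.24 in Sox4 cKO, beside medians over all probes between -0.0028 and 0.00062. These are medians of fitted values, and the medians on single arrays were 0.31 and 0.32 for dcKO, 0.10 and -0.023 for Sox11 cKO, and 0.30 and 0.11 for Sox4 cKO. Both arrays were higher for 5 members (Sox4 cKO), 2 members (Sox11 cKO) and 6 members (dcKO), and among the 18132 probes above background throughout this held for 23%, 22.2% and 28.3%. Both were lower for 0, 2 and 1 members, beside 22.8%, 21.8% and 30.4% of those probes.

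**Figure D1:**
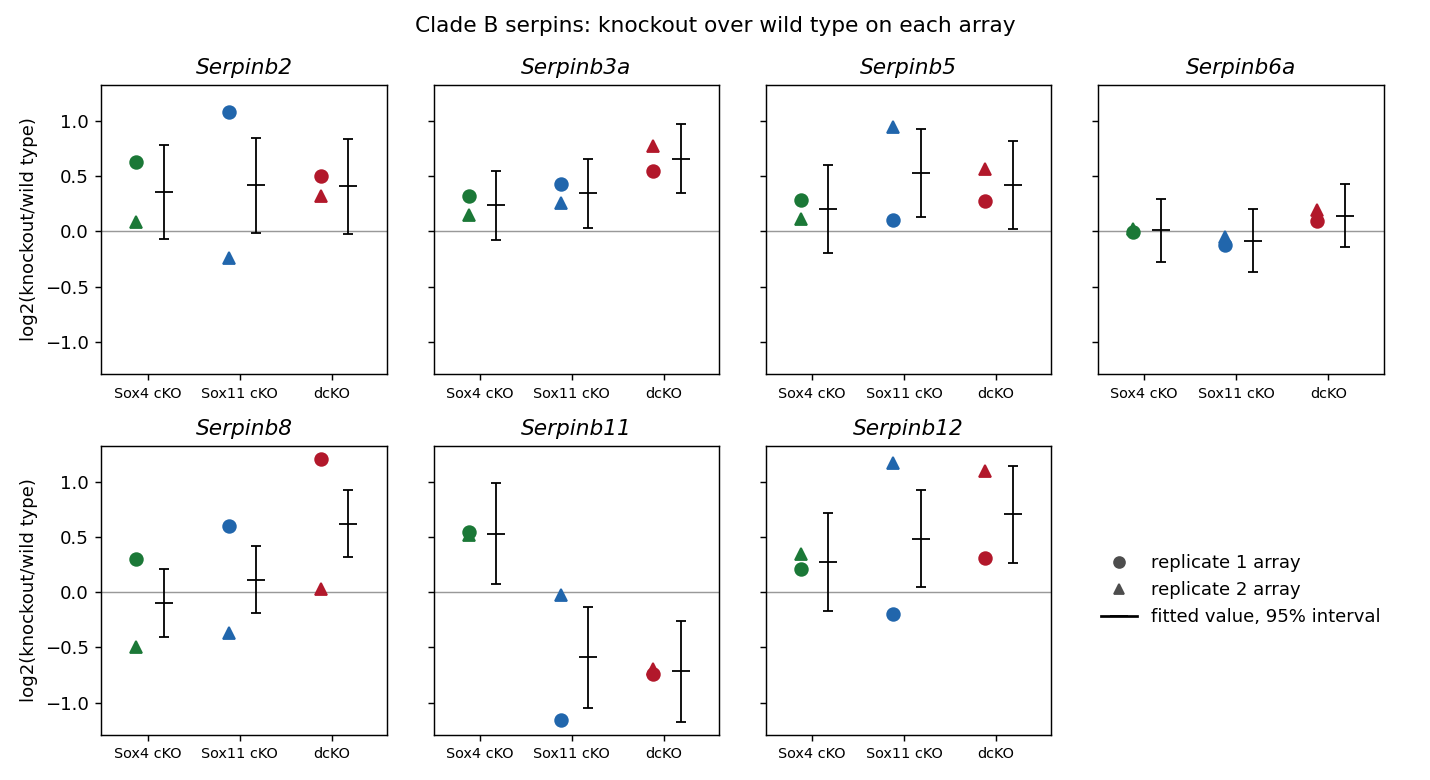
Log2(knockout/wild type) of each serpin (vertical axis) in Sox4 cKO, Sox11 cKO and dcKO, with circles for replicate 1 arrays, triangles for replicate 2 arrays, and dashes with bars for limma's fitted value and 95% interval. Both dcKO arrays lie above 0 for 6 genes and below 0 for Serpinb11, and the replicates of Serpinb8 lie apart in every genotype.

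Serpinb3a, a mouse relative of the human squamous cell carcinoma antigens, which inhibit lysosomal cysteine proteases and some serine proteases, was the most even of the genes with positive ratios. Its log2 ratio was 0.32 and 0.15 on the Sox4 cKO arrays, 0.43 and 0.26 on the Sox11 cKO arrays, and 0.54 and 0.77 on the dcKO arrays. All 6 arrays were above 0, and both dcKO arrays were above the 4 others. In dcKO the fitted value was 0.66 ± 0.16 (SD, n = 2), a 1.58-fold difference, with a standard error of 0.14, a 95% interval of 0.35 to 0.97 and a limma adjusted p of 0.0911. The single knockouts gave 0.24 (adjusted p = 0.835) and 0.34 (adjusted p = 0.704). The difference between dcKO and Sox4 cKO was 0.42, with a 95% interval of -0.020 to 0.86, and that between dcKO and Sox11 cKO was 0.31, with an interval of -0.13 to 0.75. Leaving out dcKO replicate 1 or replicate 2 moved the first to 0.62 or 0.22 and the second to 0.51 or 0.12, and median centring in place of loess moved the first to 0.22. Neither difference passed (adjusted p = 0.827 and 0.778), and dcKO exceeded the 2 single knockouts added together by 0.076 (interval -0.46 to 0.62), a contrast that 0.088% of all probes passed. The dcKO value of Serpinb3a crossed the threshold under other corrections, with a limma adjusted p of 0.00471 with a normexp offset of 50, 0.0113 without background subtraction and 0.0133 with ComBat for the dye. Those settings passed 1378, 1107 and 3628 probes in dcKO by adjusted p alone, against 464 in the main fit. It did not cross without the dye coefficient (0.165) or with Feature Extraction's ratio (0.318).

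The wild-type level of Serpinb3a itself differed between arrays. On the log2 intensity scale it was 8.89 on both Sox4 cKO arrays, 9.50 and 9.55 on the Sox11 cKO arrays, and 9.46 and 9.15 on the dcKO arrays. The knockout levels were 9.21, 9.04, 9.93, 9.81, 10.01 and 9.92 in the same order. Both dcKO knockout channels lay above every wild-type channel, but so did both Sox11 cKO knockout channels. Serpinb3b, Serpinb3c and Serpinb3d are close relatives that could share signal with this probe. In dcKO, Serpinb3c had log2 ratios of 0.26 and 0.75, and Serpinb3b had -0.67 and 0.07. The Serpinb3b probe thus had a different sign from Serpinb3a on dcKO replicate 1. How far the probes of these relatives bind each other's RNA was not tested.

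Serpinb8, which inhibits the proprotein convertase furin and whose human counterpart is mutated in a form of peeling skin, had a dcKO value of similar size with a much wider split. The log2 ratio was 0.30 and -0.49 (Sox4 cKO), 0.60 and -0.37 (Sox11 cKO) and 1.21 and 0.03 (dcKO). Replicate 1 was above replicate 2 in all 3 genotypes, by 0.79, 0.97 and 1.18. This split followed the dye orientation, and the dye coefficient of 0.49 was matched or exceeded in size by 0.37% of the 18132 probes above background. Replicate number and dye orientation coincide, so the dye and the samples cannot be told apart. The fitted dcKO value was 0.62 ± 0.83 (SD, n = 2) with a standard error of 0.13 once the dye was in the model (95% interval 0.31 to 0.92, limma adjusted p = 0.106), and the adjusted p was 0.882 without it. As for Serpinb3a, it passed with an offset of 50 (adjusted p = 0.00437), without background subtraction (0.0128) and with ComBat (0.0133).

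The wild-type level was 11.05, 11.06, 10.55, 10.92, 10.68 and 11.65, and the knockout level 11.35, 10.56, 11.15, 10.54, 11.89 and 11.68, in the order Sox4 cKO, Sox11 cKO, dcKO. Both dcKO knockout channels lay above every wild-type channel, but that of replicate 2 only just, and its own wild type was the highest of the 6. On replicates of like dye, the dcKO ratio of Serpinb8 exceeded the Sox4 cKO ratio both times, and the same held against Sox11 cKO. The fitted difference was 0.72 (95% interval 0.29 to 1.15, limma adjusted p = 0.524) against Sox4 cKO and 0.51 (0.076 to 0.94, adjusted p = 0.651) against Sox11 cKO. At this rule 0.147% and 0.163% of all probes passed in the respective contrast. Furin had log2 ratios of 0.66 and 0.51 in dcKO (fitted 0.59, adjusted p = 0.269), against 0.07 and -0.0030 (Sox4 cKO) and -0.53 and 0.20 (Sox11 cKO). Inhibitor and protease both had positive values on both dcKO arrays, and neither passed the test.

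Serpinb11, known in mouse as an inhibitor of trypsin, had positive ratios in Sox4 cKO and negative ones in the other genotypes. Its log2 ratio was 0.54 and 0.52 (Sox4 cKO), -1.16 and -0.02 (Sox11 cKO) and -0.74 and -0.69 (dcKO). The Sox4 cKO and dcKO arrays each repeated closely, whereas the Sox11 cKO arrays did not. The fitted dcKO value was -0.72 ± 0.03 (limma adjusted p = 0.244), that of Sox4 cKO 0.53 ± 0.02 (adjusted p = 0.802) and that of Sox11 cKO -0.59 ± 0.80 (adjusted p = 0.694), with SDs over n = 2 arrays. The standard error was 0.20 in each, larger than the SD of the closely repeating pairs. Here limma pools the residual spread over all 3 genotypes and draws it toward a value common to all probes (6.65 prior and 2 residual degrees of freedom). The dcKO value corresponds to 0.609 of the wild-type level.

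Its wild-type channel was steady, between 8.78 and 9.24 on the log2 scale over the 6 arrays. The knockout channel read 8.09 and 8.25 for dcKO, 9.33 and 9.44 for Sox4 cKO, and 8.08 and 9.19 for Sox11 cKO. Both Sox4 cKO channels lay above all wild-type channels, and both dcKO channels lay below all of them. The difference dcKO minus Sox4 cKO was -1.24 (95% interval -1.89 to -0.60, adjusted p = 0.362), and Sox4 cKO minus Sox11 cKO was 1.12 (0.47 to 1.77, adjusted p = 0.929). Of all probes, 0.0018% passed in the latter contrast. The interval of dcKO minus Sox11 cKO, -0.77 to 0.52, spanned 0. Leaving out 1 array leaves the other of its genotype to be corrected by the dye coefficient of the remaining pairs. Without Sox11 cKO replicate 1 the Sox11 cKO value moved to -0.027, and without replicate 2 to -1.15. The Sox4 cKO value moved to 0.22 without its replicate 1 and 0.84 without its replicate 2, and the dcKO value to -0.97 and -0.46, respectively. The difference Sox4 cKO minus Sox11 cKO then ran from 0.56 to 1.68.

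Serpinb12, which inhibits trypsin-like serine proteases, had 2 probes that moved alike. On the brighter probe the log2 ratio was 0.20 and 0.34 (Sox4 cKO), -0.20 and 1.17 (Sox11 cKO) and 0.31 and 1.096 (dcKO). The other probe gave 0.35, 0.14, -0.18, 1.31, 0.38 and 0.97 in the same order. Replicate 2 was above replicate 1 in all 3 genotypes on the brighter probe, the reverse of Serpinb8, and a dye coefficient as large as its -0.38 was found for 1.15% of the probes above background. The dcKO value was 0.70 ± 0.56 (SD, n = 2; 95% interval 0.26 to 1.14, limma adjusted p = 0.231) on the brighter probe and 0.68 (adjusted p = 0.39) on the other. The Sox11 cKO value of 0.48 rested on replicate 2, and was 0.032 without it.

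Serpinb5, or maspin, has the serpin fold but is not known as a classical protease inhibitor. Its log2 ratio was 0.28 and 0.11 (Sox4 cKO), 0.10 and 0.95 (Sox11 cKO) and 0.28 and 0.57 (dcKO), above 0 on all 6 arrays. The fitted values were 0.20, 0.53 and 0.42 (limma adjusted p = 0.899, 0.694 and 0.478). As for Serpinb12, the highest single value was on Sox11 cKO replicate 2, and without that array the Sox11 cKO value was 0.13. Serpinb3a and Serpinb5 were the 2 of 7 members higher on all 6 arrays, which held for 3.42% of probes above background. Leaving out Sox11 cKO replicate 2, a choice made after seeing the data, Serpinb2 joined them, giving 3 members beside 5.6% of those probes.

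Serpinb2, also called plasminogen activator inhibitor 2, blocks urokinase and tissue plasminogen activator. Its log2 ratio was 0.63 and 0.09 (Sox4 cKO), 1.08 and -0.24 (Sox11 cKO) and 0.50 and 0.32 (dcKO). The only array below 0 was Sox11 cKO replicate 2. The fitted values of 0.36, 0.42 and 0.41 had limma adjusted p of 0.823, 0.717 and 0.529, and the dcKO interval ran from -0.020 to 0.84. The dcKO value was 0.79 without dcKO replicate 1 and 0.032 without replicate 2. In these fits the dcKO array that is left is corrected by the dye coefficient of the other genotypes' pairs. Replicate 1 exceeded replicate 2 by 0.54 in Sox4 cKO and 1.32 in Sox11 cKO, against 0.18 in dcKO. Urokinase (Plau) had positive dcKO ratios of 0.45 and 0.31 (adjusted p = 0.495), and tissue plasminogen activator (Plat) was not well above background in any channel.

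The level of Serpinb2 on Sox11 cKO replicate 2 was unlike that on the other arrays in both channels. The wild-type level was 11.37, 11.57, 10.75, 7.38, 11.12 and 11.17 on the log2 scale, in the order Sox4 cKO, Sox11 cKO, dcKO and replicate 1 before 2. The knockout level was 11.998, 11.66, 11.83, 7.13, 11.62 and 11.49. On that 1 array the wild type lay 13.9-fold below the median of the other wild types, and only 16 of 18132 probes above background lay as far or further below there. Its background-subtracted signals were 201.5 in the wild type and 92.5 in the knockout, both still well above background. The ratio there is thus one of low levels on both sides, and without that array the Sox11 cKO value was 0.90 (adjusted p = 0.917).

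Serpinb6a, an inhibitor of cathepsin G, thrombin and trypsin that many tissues make, was the flattest. Its log2 ratio was -0.0055 and 0.024 (Sox4 cKO), -0.12 and -0.05 (Sox11 cKO) and 0.09 and 0.19 (dcKO). The wild-type level spanned 0.30 on the log2 scale over the 6 arrays, the narrowest of the 7 genes' own spans. The fitted dcKO value of 0.14 had a 95% interval of -0.14 to 0.43 (limma adjusted p = 0.778).

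**Figure D2:**
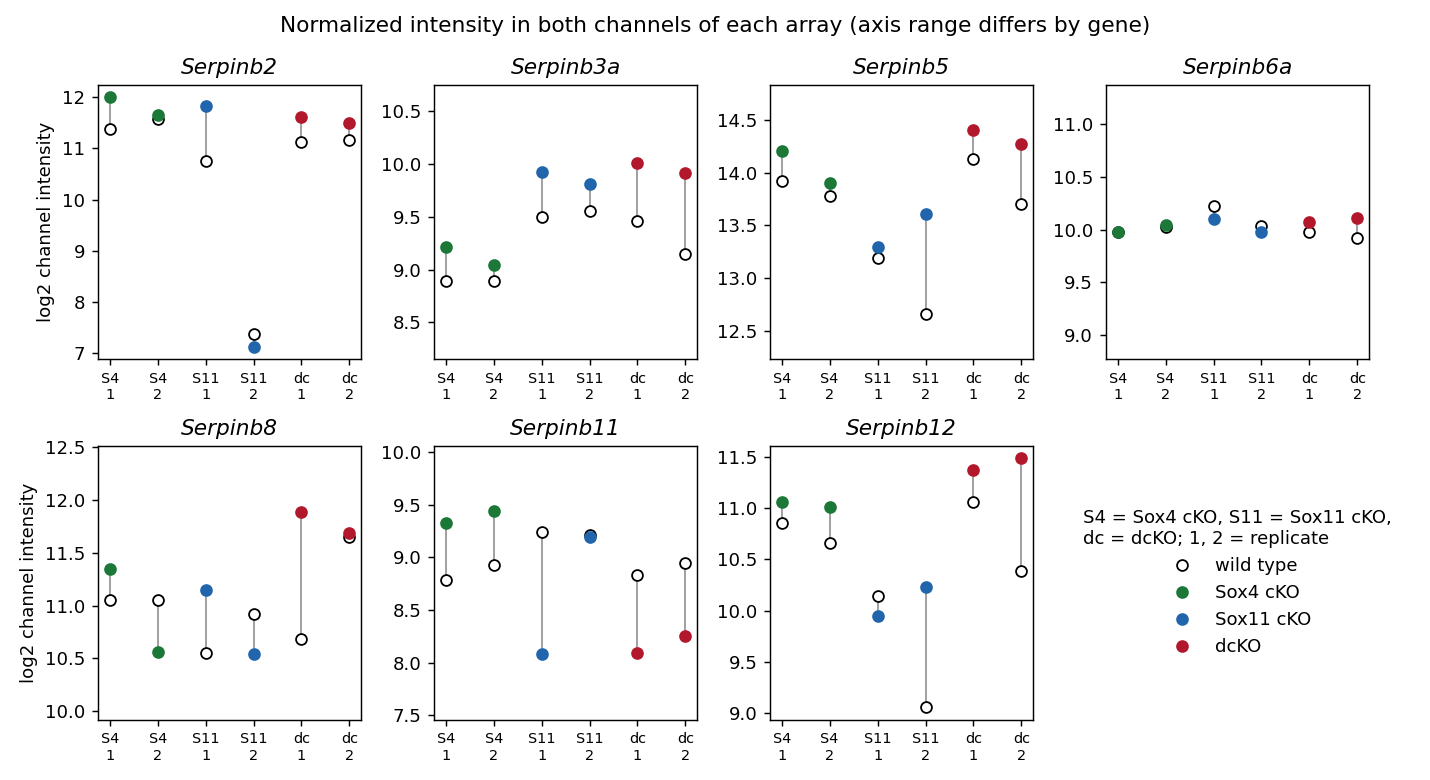
Normalized log2 intensity (vertical axis, range differing by gene) in the wild-type channel (open circles) and the knockout channel (filled circles) of each of the 6 arrays, joined by a line per array. Serpinb2 drops to 7.38 and 7.13 in both channels of Sox11 cKO replicate 2, while Serpinb5 and Serpinb12 have their lowest wild-type values there.

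On Sox11 cKO replicate 2 the wild-type levels of Serpinb5 and Serpinb12 were the lowest of the 6 arrays. The Serpinb12 wild-type level there was 9.06, against 10.14 to 11.06 on the other arrays, a 3.04-fold difference from their median. For Serpinb5 it was 12.66, against 13.19 to 14.13 elsewhere. The knockout channels, 10.23 for Serpinb12 and 13.61 for Serpinb5, lay within the range of wild-type levels on the other arrays. Against the other arrays' median, the wild-type channel here differed by -1.60 for Serpinb12 and -1.12 for Serpinb5 on the log2 scale. The knockout channel differed from the other knockouts by -0.83 and -0.60. On Sox11 cKO replicate 1 both channels were low as well. They differed by -0.52 (wild type) and -1.11 (knockout) for Serpinb12, and by -0.59 and -0.92 for Serpinb5. The source of these levels was not tested.

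Markers of the granular layer, the last living layer of the epidermis, moved on the same array. The median log2 ratio of 7 such genes was 0.15 and 1.31 in Sox11 cKO, 0.87 and 0.62 in dcKO, and 0.14 and 0.06 in Sox4 cKO. In dcKO 1 of the 7 rose past the adjusted p threshold and was called. Of all probes, 0.833% passed that threshold in dcKO and 0.207% were called. Involucrin (Ivl), a cornified envelope protein, had a wild-type level of 7.47 on Sox11 cKO replicate 2 and of 9.66 to 11.81 on the others. Corneodesmosin (Cdsn), an adhesion protein of the outer layers, read 5.51 there and 9.27 to 12.90 elsewhere. The lower ends, 9.66 and 9.27, were those of Sox11 cKO replicate 1. Knockout levels were low on both Sox11 cKO arrays too, at 9.99 and 9.76 for Ivl and 9.47 and 9.19 for Cdsn. The other knockouts read 11.30 to 12.23 (Ivl) and 11.74 to 13.61 (Cdsn). Both genes were picked after their values were seen. Among the 7, Tgm3 alone had a negative ratio on Sox11 cKO replicate 2, at -0.015 (wild type 7.29, against 7.55 to 7.89 elsewhere). Flg2, near background there, had 0.35. The summed wild-type level of the 7 markers was 15.47 there, against 16.36 to 16.87 elsewhere, with 6 or 7 of the 7 above background in every channel. In that wild-type channel 150 of 18132 probes lay over 2 log2 units below the median of the other arrays. In peeled epidermis a lower share of cells of a layer and less RNA per cell cannot be told apart, and what part the granular layer content had in the serpin ratios was not tested.

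**Figure D3:**
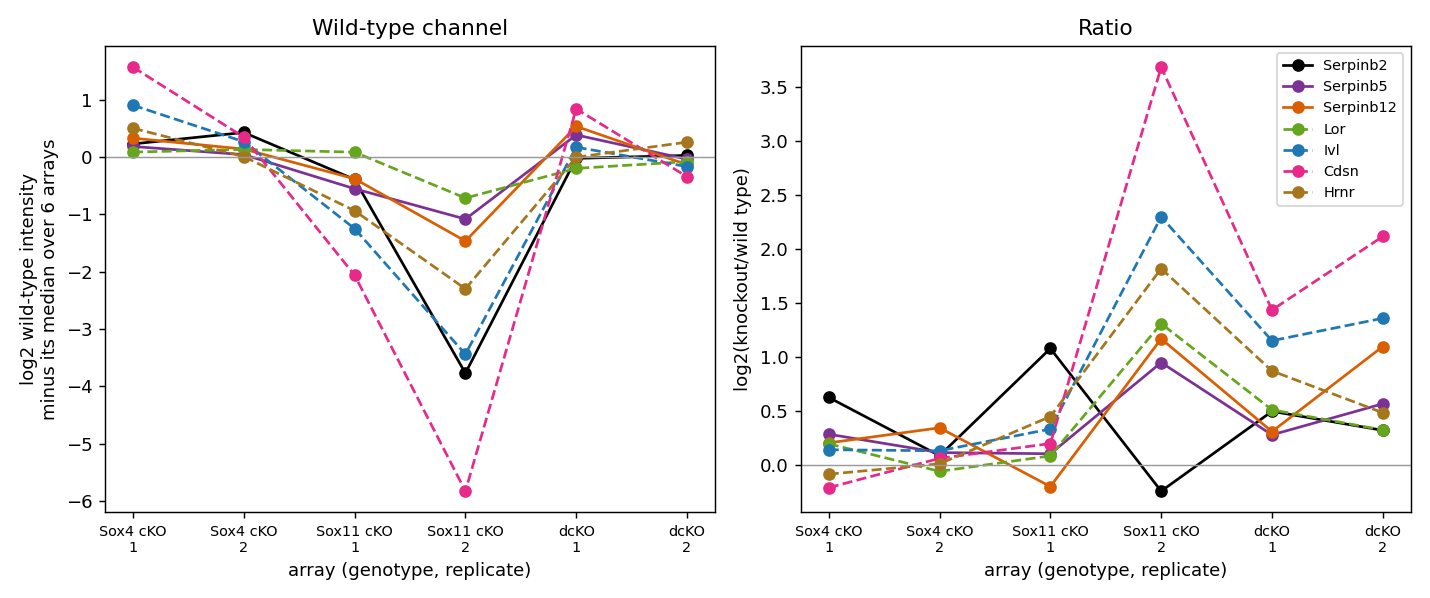
Left, log2 wild-type intensity on each array minus the gene's median over the 6 arrays, and right, log2(knockout/wild type), for 3 serpins (solid lines) and 4 granular layer genes chosen after their values were seen (dashed lines). Lines join values of 1 gene and imply no order of arrays. On Sox11 cKO replicate 2 all 7 wild-type values are at their lowest, and all ratios but that of Serpinb2 are at their highest.

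Among the marker lists of other cells, those of dermal fibroblasts and periderm had the lowest medians in dcKO. Dermal fibroblast markers had median log2 ratios of -1.71 and -1.53 over 8 genes on the dcKO arrays, while the Sox11 cKO arrays gave 1.11 and -0.68 and the Sox4 cKO arrays -2.997 and 0.88. Their summed level ran from 12.62 to 14.46 in the wild-type channels and from 12.75 to 13.52 in the knockout channels, with 7 or 8 of the 8 above background in each. The log2 ratio of the summed levels was -0.46 and -0.18 in dcKO. Dcn, the brightest of the 8 on the dcKO arrays, was higher on both (0.41 and 0.29), and 7 were lower on both. Periderm markers, from the embryonic cell sheet that covers the epidermis, had medians of -1.098 and -1.04 over 6 genes in dcKO. Of the 6, 3 fell past the adjusted p threshold there, beside 0.833% of all probes past it in either direction. In Sox4 cKO the medians of the periderm markers were 0.66 and 0.41 and in Sox11 cKO -1.51 and -0.58. Their summed level ran from 12.93 to 13.87 in the wild type and from 11.84 to 13.39 in the knockout, with all 6 above background. In Sox4 cKO 5 of the 6 were higher on both arrays. Krt17, the brightest there, was lower at -0.91 and -0.97, and the log2 ratio of the summed levels was -0.077 and -0.17. In Sox11 cKO Krt17 had -0.0065 and 0.040. Muscle markers had dcKO medians of -0.22 and -0.73, melanocyte markers -0.095 and -0.26, and blood vessel markers -0.044 and -0.017, with none of these lists' genes past the threshold. Those of immune cells (-0.18 and 0.41) and red blood cells (-0.31 and 1.14) differed in sign between the arrays. The part of these lists in the serpin values was not tested.

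The 20 other clade B serpins were measured less well. Of them, 6 were above background in every channel and 8 in none. None passed the adjusted p in limma in any genotype. At an unadjusted p under 0.05 there were 3 higher and 2 lower in dcKO, 4 higher and 2 lower in Sox11 cKO, and 1 higher and 2 lower in Sox4 cKO. Of all probes, 9.89%, 7.05% and 6.18% were at that level, in the same order. The median log2 ratio of the 20 in dcKO was 0.017, beside 0.42 for the 7 genes above and -0.00012 over all probes. Among those above background throughout, Serpinb7, also called megsin, had ratios of 0.38 and 0.79 in Sox11 cKO (fitted 0.59, adjusted p = 0.694) and 0.39 and -0.05 in dcKO. Serpinb6c had 0.25 and 0.63 in dcKO (adjusted p = 0.327), and Serpinb10 had 0.020 and 0.12. Serpinb1a, an inhibitor of neutrophil serine proteases, was lower on both dcKO arrays at -0.97 and -0.19 (adjusted p = 0.542), and gave -1.37 and 0.49 (Sox4 cKO) and 0.10 and -0.059 (Sox11 cKO). The values did not run in order along the chromosome 1 cluster, since Serpinb11 at -0.74 and -0.69 in dcKO lies next to Serpinb3c at 0.26 and 0.75 and to Serpinb7.

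**Figure D4:**
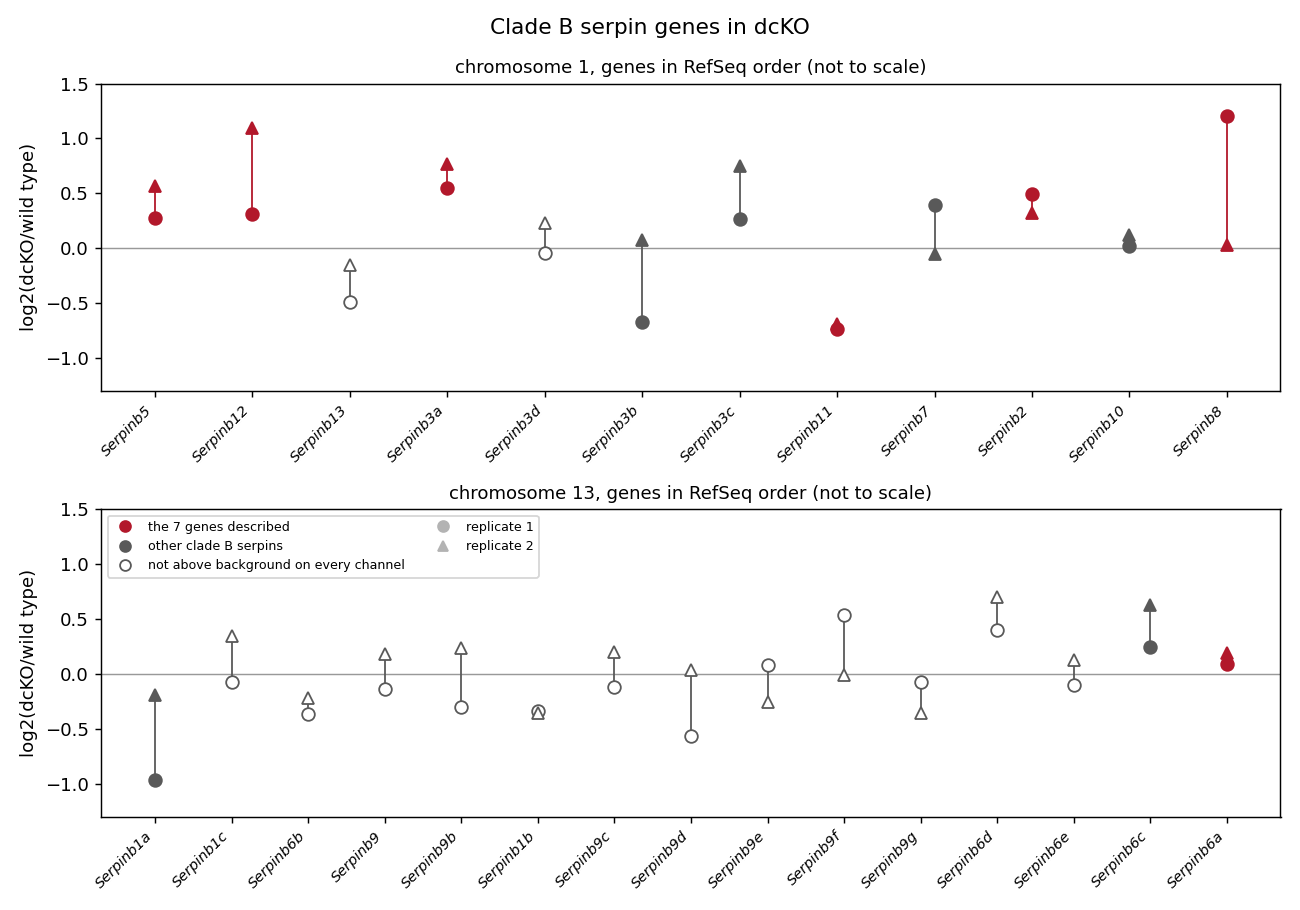
Log2(dcKO/wild type) of 27 clade B serpin genes on each of the 2 arrays (circles, replicate 1, and triangles, replicate 2), in RefSeq gene order on chromosomes 1 and 13, with the 7 genes described in red and open symbols for probes not above background on every channel. Serpinb11 is negative on both arrays and stands between genes with positive or mixed values.

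Among 14 proteases known as targets of clade B serpins, 2 rose in dcKO past the adjusted p threshold, where 0.833% of all probes did. Cathepsin H (Ctsh), a lysosomal cysteine protease, had log2 ratios of 1.88 and 1.19 in dcKO (fitted 1.53, 95% interval 1.02 to 2.05, limma adjusted p = 0.0206) and values of both signs in each single knockout. Cathepsin L (Ctsl), another, had 0.94 and 0.89 in dcKO (fitted 0.91, adjusted p = 0.0216), against -0.35 and 0.06 (Sox4 cKO) and -0.18 and -0.06 (Sox11 cKO). Both dcKO arrays exceeded all 4 single knockout arrays for each gene. The median of the 14 in dcKO was 0.26, and 6 of them were above background in no channel.

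Of 29 measured other proteases and protease inhibitors of the epidermis, 3 rose in dcKO past the same threshold. Prostasin (Prss8), a membrane-anchored serine protease of the barrier, had ratios of 0.80 and 1.17 (fitted 0.99, limma adjusted p = 0.0112). Stfa2, a stefin A that inhibits cysteine cathepsins, had 1.25 and 1.85 (fitted 1.55, adjusted p = 0.0477), but also 0.61 and 2.78 in Sox11 cKO (fitted 1.69, adjusted p = 0.486). Serpina12, or vaspin, was well above background in the knockout on both dcKO arrays and in no wild-type channel, and was at least 2.70-fold higher (adjusted p = 0.00336). The median of this list was 0.45 in dcKO, close to the 0.42 of the 7 serpins. In the single knockouts none of either list passed. At an unadjusted p under 0.05, dcKO had 14 higher and 3 lower of the 29 and 7 higher of the 14 proteases. Sox11 cKO had 15 higher and 2 lower of the 29 and 1 higher of the 14. Sox4 cKO had 3 higher and 2 lower of the 29 and 1 lower of the 14. The share of all probes at that level was 9.89%, 7.05% and 6.18%, respectively. Some Sox11 cKO ratios were far larger on replicate 2, such as Spink5 (0.18 and 1.77) and Cst6 (0.40 and 1.44). The medians of the 29 on the Sox11 cKO arrays were 0.17 and 0.34.

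The genes most like each serpin in pattern were found among the 10406 genes above background throughout, by Pearson's r of the log2 ratios over the 6 arrays, a description that 6 points on shared arrays make easy to reach. For Serpinb5 they were Kdm4c, Tead4 and Atp6v1a (r = 0.994, 0.994 and 0.991), and 212 genes exceeded 0.9. For Serpinb12 they were Ogdh, Gm3776 and Emc6, for Serpinb8 Gpr157, Gm11412 and Rdh13, and for Serpinb2 Cpsf3, Lrrn4cl and Timm22. Serpinb11 was nearest to Celf4, Plxnb1 and Fzd1, and Serpinb6a to Mtfp1, Sin3b and Srp54c. Serpinb3a was nearest to Selenok-ps1, Edem3 and Plpp6, with 52 genes over 0.9, the lowest such number of the 7, beside 233 for Serpinb12. No serpin was among the nearest genes of another.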

How the data were processed

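The authors scanned Agilent SurePrint G3 mouse arrays and extracted them with Agilent Feature Extraction 11.0.1.1 (limma 3.5 in their processing notes). The deposited scanner files hold each spot's red and green intensity and background, and a log10 ratio that Feature Extraction computed. The authors' series table holds log2 knockout over wild type per probe after normexp (offset 16) and loess. It matched values computed here from the scanner files (slope 1, largest difference 0.000318) with no ComBat adjustment in it.

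That table was fitted in R 4.3.3 with limma 3.58.1, with 1 coefficient per genotype and 1 dye coefficient over 6 arrays (6.65 prior and 2 residual degrees of freedom), and Benjamini-Hochberg adjustment over 55681 probes. Tests were two-sided. The dye coefficient counts the degree of freedom that ComBat leaves uncounted, and is also the replicate block. Replicate numbers come from the labels, and deviations of same-numbered arrays correlated across probes at r = 0.26, 0.31 and 0.33. Channel levels were taken after normexp, loess and Aquantile scaling of the intensities. The lower limit used in "at least" folds is, per array, the smallest level of any probe marked well above background, or the dim probe's own where higher. The brightest probe stood for a gene. Symbols and promoters are RefSeq GRCm38.p6, and 28331 probes received a symbol. No probe was named Pi3 or Flg through this table. The array's own design used another assembly, so no probe coordinates are given.

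All 7 genes are named with every array's value. Of the serpin, protease and inhibitor lists, those passing the adjusted p threshold in a genotype are named, up to 6 a list. Marker genes that passed are counted. A few others (granular layer genes, Krt17, Dcn, Spink5, Cst6, close relatives, Furin, Plau, Plat, Serpinb7, Serpinb6c, Serpinb10, Serpinb1a) were added after their values were seen. For each serpin the 3 genes of highest r are named. Members and lists were chosen with earlier results of these data known. Alternatives were background correction, normalization, dye handling, a filter on dim probes, the arrays fitted, the other Serpinb12 probe and leaving out each array. The fit was tested on simulated data.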

Additional observations from a re-analysis of the deposited data

Results flagged for a closer look

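Serpinb11 had positive ratios on both Sox4 cKO arrays and negative ones on both dcKO arrays. On the Sox11 cKO arrays it had -1.16 and -0.02, so the value of that genotype rested mostly on replicate 1. The fitted log2 ratio was -0.72 in dcKO, -0.59 in Sox11 cKO and 0.53 in Sox4 cKO. The differences did not pass limma's test, at an adjusted p of 0.929 for Sox4 cKO minus Sox11 cKO and 0.362 for dcKO minus Sox4 cKO. Serpinb6a was lower on both Sox11 cKO arrays and higher on both dcKO arrays, at -0.085 and 0.14, a difference of 0.23 with a 95% interval of -0.18 to 0.63 (adjusted p = 0.825).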

How the results depend on the processing

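Of 318 values of the 7 genes within a genotype under another setting, 306 kept their sign and their side of the threshold, and of 396 differences between genotypes 360 did. An offset of 50, no background subtraction and ComBat brought Serpinb3a in dcKO (0.63, 0.65 and 0.66) and Serpinb8 in dcKO (0.61, 0.62 and 0.62) past the adjusted p threshold, and the offset of 50 did so for Serpinb8 in dcKO minus Sox4 cKO (0.70). Median centring turned Serpinb8 in Sox4 cKO from -0.098 to 0.093. It also turned differences, none past the test: dcKO minus Sox4 cKO for Serpinb2 (0.053 to -0.16) and Serpinb6a (0.13 to -0.078), dcKO minus Sox11 cKO for Serpinb2 (-0.0094 to 0.018) and Serpinb5 (-0.10 to 0.037), dcKO minus the sum of the single knockouts for Serpinb3a (0.076 to -0.011), and Sox4 cKO minus Sox11 cKO for Serpinb2 (-0.062 to 0.18), Serpinb3a (-0.11 to 0.16), Serpinb5 (-0.33 to 0.0089), Serpinb8 (-0.21 to 0.092) and Serpinb12 (-0.21 to 0.084). The cause was not tested. Dropping the replicate block gave 103 called probes in dcKO in place of 115, with adjusted p alone 270 in place of 464, and no serpin's side of the threshold changed. Called probes in Sox4 cKO (3) became 0 with the offset of 50, 1 without background subtraction, 0 with Feature Extraction's ratio, 0 with the filter on dim probes and 5 from its own arrays. In Sox11 cKO (0) they became 1, 7, 4 (median centring) and 2 (own arrays), and in dcKO Feature Extraction's ratio gave 0. Adjusted p alone gave 1378, 1107 and 3628 probes in dcKO with the offset of 50, no subtraction and ComBat. Leaving out 1 array at a time gave 0 to 39 called probes in Sox4 cKO, 1 to 40 in Sox11 cKO and 121 to 168 in dcKO, and some serpin values changed sign. A lone array of a genotype was then assumed to vary like the others. For Sox11 cKO these were Serpinb2 -0.063 to 0.90. For dcKO minus Sox4 cKO these were Serpinb2 -0.32 to 0.43, Serpinb5 -0.15 to 0.59, Serpinb12 -0.040 to 0.90. For dcKO minus Sox11 cKO these were Serpinb2 -0.49 to 0.47, Serpinb5 -0.50 to 0.29, Serpinb11 -0.69 to 0.44, Serpinb12 -0.23 to 0.67. For Sox4 cKO minus Sox11 cKO these were Serpinb2 -0.54 to 0.42, Serpinb5 -0.72 to 0.066, Serpinb12 -0.68 to 0.26. For dcKO minus sum of single knockouts these were Serpinb2 -0.85 to 0.12, Serpinb3a -0.12 to 0.27, Serpinb5 -0.70 to 0.089, Serpinb12 -0.52 to 0.41. For Sox4 cKO these were Serpinb5 -0.17 to 0.57, Serpinb6a -0.018 to 0.036, Serpinb8 -0.24 to 0.043, Serpinb12 -0.19 to 0.74.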
